A study of Mus musculus with 15 samples.

Results

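The genes described here code for collagens, laminin chains, nidogens and other structural proteins of the extracellular matrix. They were chosen by gene symbol, as every probe whose symbol has the usual form for a collagen chain, a laminin chain or a nidogen, together with Hspg2, Agrn, Sparc, Bgn, Dcn, Lum, Fn1, Fbln1, Fbln2 and Fbn1. This gave 59 of the 16675 gene symbols on the array, measured by 84 of its 29922 probes. Lamb1, a laminin beta chain, is on the array under an older symbol that this form does not match, and is left out. A basement membrane is a thin sheet of collagen IV, laminin, nidogen and heparan sulfate proteoglycan, which endothelial cells and pericytes of a vessel lay down together and share. In the retina such sheets also lie under the pigment epithelium and at the inner surface, next to the vitreous, a gel held by fibrils of other collagens. When retinal capillaries regress, empty sleeves of basement membrane can stay behind, along which new vessels may grow.

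RNA of whole retinas of C57BL/6J mice was compared on 2-colour arrays, 3 arrays in each of 5 comparisons, each array with 1 pool of 10 retinas from 5 mice in each channel. In oxygen-induced retinopathy (OIR), pups breathe 75% oxygen from postnatal day (P) 7 to P12, which halts and reverses growth of retinal capillaries, and then return to room air, in which the retina becomes hypoxic. OIR retinas (O) were set against normal, room-air retinas (N) of the same age at P8 (1 day in oxygen), P12 (5 days in oxygen) and P13 (5 days in oxygen and 1 day in room air). The fourth comparison set OIR retina of P13 against normal retina of P9, and the last set normal retina of P9 against normal retina of P30. The deposited value is a log2 ratio, and 1 unit stands for a doubling. The genes had 5 groups by protein: 12 genes of the vessel basement membrane, 9 for other basement membrane chains, 11 fibrillar collagens, 19 other collagens, and 8 small proteoglycans and glycoproteins.

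Of the 84 probes, 63 had a value on at least 1 array and 23 on all 15. No value was listed for 10 genes (Col10a1, Col12a1, Col16a1, Col18a1, Col22a1, Col4a4, Fn1, Lamb2, Lum and Nid2), so the vessel group could be read for 9 of its 12 genes. A probe was tested where at least 2 of 3 arrays had a value, which left 35 probes at P8, 51 at P12, 43 at P13, 53 for P13 OIR over P9 and 36 for P9 over P30. Over all probes, an array held 12008 to 21189 values, and replicate arrays correlated at r = -0.21 to 0.21 at P8, 0.34 to 0.52 at P12, 0.04 to 0.46 at P13, 0.42 to 0.61 for P13 OIR over P9 and 0.83 to 0.90 for P9 over P30. The number of arrays limits the precision. Below, a gene is said to have fallen or risen where limma's adjusted p over all probes tested was under 0.05 and the change was at least 1.5-fold. These words refer to the first-named retina of a ratio. For P9 over P30 a rise thus means a higher level at P9 than at P30, not an increase with age.

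Col4a1 and Col4a2, the lowest of the vessel basement membrane genes in OIR retina at P12, code for both chains of the collagen IV trimer found in nearly all basement membranes. They lie head to head on chromosome 8. Their promoter windows (RefSeq, GRCm38.p6, 250 bases before to 50 after the annotated start) are shown because these neighbours moved together, with the 78 bases that both windows share in capitals, each window read along its own gene's strand. Col4a1 is on the minus strand (chr8:11312777-11313076) and Col4a2 on the plus strand (chr8:11312555-11312854).
Col4a1: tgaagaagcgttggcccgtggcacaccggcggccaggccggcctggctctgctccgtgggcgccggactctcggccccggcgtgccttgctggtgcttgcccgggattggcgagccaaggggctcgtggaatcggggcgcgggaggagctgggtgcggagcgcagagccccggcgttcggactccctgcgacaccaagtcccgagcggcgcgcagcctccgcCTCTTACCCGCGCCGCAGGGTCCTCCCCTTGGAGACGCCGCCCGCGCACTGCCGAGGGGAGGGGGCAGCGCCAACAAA
Col4a2: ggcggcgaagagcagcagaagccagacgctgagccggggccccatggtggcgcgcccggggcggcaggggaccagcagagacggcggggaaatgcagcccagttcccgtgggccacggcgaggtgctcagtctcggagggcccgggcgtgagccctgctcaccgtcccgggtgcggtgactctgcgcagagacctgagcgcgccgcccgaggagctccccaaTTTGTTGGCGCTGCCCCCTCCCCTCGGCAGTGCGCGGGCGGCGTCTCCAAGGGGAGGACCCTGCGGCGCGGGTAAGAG

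Both windows were rich in G and C (74.0% for Col4a1 and 73.67% for Col4a2, beside a median of 52.67% over all promoters). Searched on both strands, the letters CCAAT occurred once in each window and GGGCGG occurred 1 time in that of Col4a1 and 3 times in that of Col4a2, beside 37.41% and 35.66% of all 32851 promoters that hold these motifs. ACGTG, a form of the core of the hypoxia response element, and TATAAA were found in neither window, and 19.62% and 13.62% of all promoters hold them. The form GCGTG was not searched for and can be read in both windows as printed. Promoters were listed for 42 of the 59 genes, and of their 48 windows 6 held ACGTG. A match or its lack describes these letters in this window and says nothing of a factor's binding.

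At P12, after 5 days in oxygen, the vessel basement membrane genes were low in OIR retina, with both collagen IV chains the lowest among them. Of 51 probes tested, 3 fell and 0 rose (5.88%), beside 1.27% called of all probes at this age. The 3 were Col4a1, Col4a2 and Bgn. No probe among these genes rose by limma, and 5 were above 0 at an unadjusted p under 0.05 (9.8%, beside 11.49% of all probes). Below 0 at that p were 17 (33.33%, beside 11.99%).

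Col4a1 (probe mMC014303) had log2 ratios of -1.24, -1.45 and -1.14 in OIR over normal retina at P12. The mean was -1.28 (SE 0.11, adjusted p = 0.000122), which puts OIR retina at 0.413 of the normal level. All 3 arrays were far below 0, and none of its P12 values overlapped those of P8 or P13. Col4a2 (probe mMC008904) had -0.91, -0.91 and -0.83, a mean of -0.88 (SE 0.09, adjusted p = 0.000614) or 0.543 of the normal level. Its spread over the arrays was small beside its distance from 0.

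Nid1, which ties the laminin network to collagen IV, had log2 ratios of -0.66, -0.54 and -0.47 at P12. Its mean of -0.56 (adjusted p = 0.00392) passed the test but lay under the 1.5-fold cutoff. Lamc1, the gamma chain of most laminins, had -0.45, -0.33 and -0.52 (mean -0.43, adjusted p = 0.0279), and Lama4, an alpha chain typical of endothelial laminin, had -0.28, -0.49 and -0.35 (adjusted p = 0.0244). These were also below 0 on every array and under 1.5-fold. Leaving out 1 array took the adjusted p over 0.05 for Lama4 in all 3 settings (0.0926 to 0.105), for Lamc1 in 2 of 3 (up to 0.155) and for Nid1 in 1 of 3 (0.0534). Without the fold cutoff 6 probes were lower (3.88% of all probes were), of which 5 were vessel basement membrane genes.

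The other vessel genes did not pass at P12. Lama5, the other endothelial alpha chain, had -0.14, -0.57 and -0.13 (adjusted p = 0.178). Col15a1, a collagen that anchors the basement membrane to the tissue beyond it, was measured on 2 arrays, at -0.38 and -0.71 (adjusted p = 0.121). Agrn, a proteoglycan that also belongs to the membrane at the inner retinal surface, stood on the other side of 0, with 0.41, 0.16 and 0.80 on probe mMR030126 (adjusted p = 0.129), while its probe mMC002255 had 0.26 and -0.17 (adjusted p = 0.903). The 3 probes of Hspg2 (perlecan, the main heparan sulfate proteoglycan of vessel basement membranes) disagreed, with means of -0.46, -0.34 and 0.19, none past the test.

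Bgn codes for biglycan, a small proteoglycan that binds collagen and growth factors, and was the one gene outside the vessel group to fall at P12. Its log2 ratios were -0.93, -0.93 and -0.94, the tightest triplet among the genes that fell at this age, with a mean of -0.93 (SE 0.11, adjusted p = 0.000907, 0.524 of the normal level). Sparc, a collagen-binding glycoprotein, had -0.36, -0.33 and -0.42 (adjusted p = 0.185). Fibrillar collagens had a median of -0.20 over 9 genes, all 9 with a mean below 0 and none past the test. Among them Col3a1 had the lowest mean, -1.04, from values of -0.43, -0.94 and -1.76 (adjusted p = 0.0923).

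**Figure D1:**
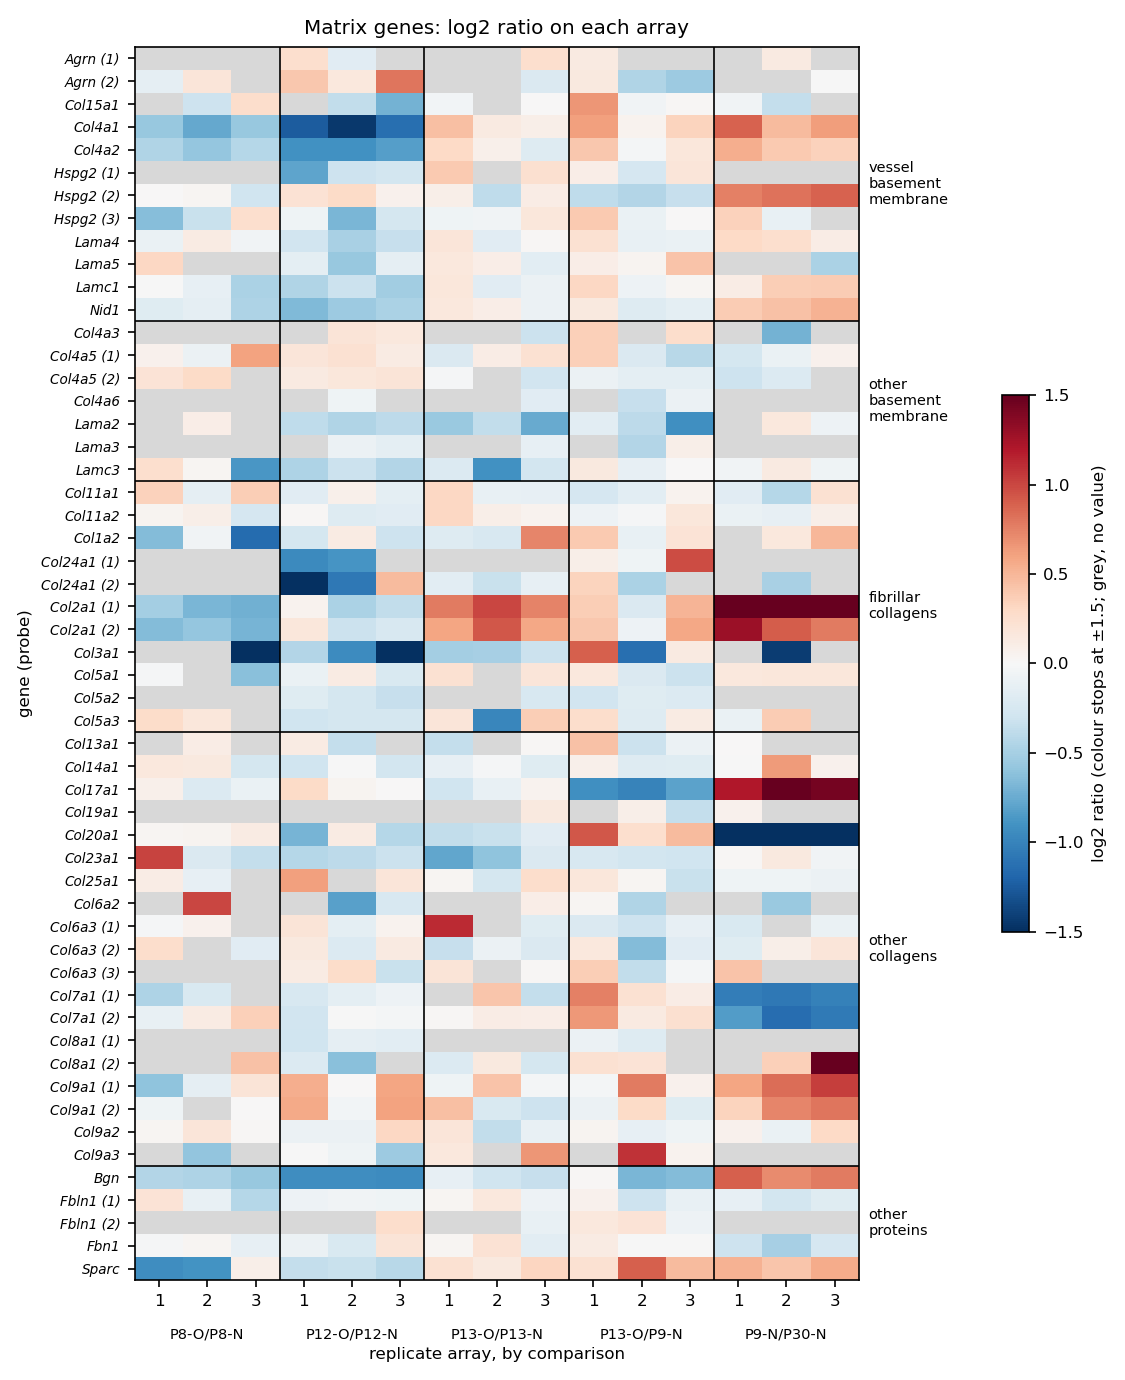
Log2 ratio of each tested matrix probe (rows, by protein group) on each of the 15 arrays (columns, 3 replicates per comparison), blue below 0, red above 0, grey where no value is listed; a number after a gene tells its probes apart. Col4a1, Col4a2 and Bgn are blue on all 3 P12 arrays, and Col2a1 is blue at P8 and red at P13.

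At P8, after 1 day in oxygen, 3 of 35 probes fell and 0 rose (8.57%), beside 0.403% called of all probes. They were the probe of Col4a1 and both tested probes of Col2a1, the fibrillar collagen of cartilage and the vitreous. By limma 1 probe was above 0 at an unadjusted p under 0.05 (2.86%, beside 5.72% of all probes). Below 0 at that p were 8 (22.86%, beside 5.4%). Leaving out any 1 of the 3 arrays ended all 3 calls, with adjusted p between 0.0632 and 0.177 for Col4a1 and up to 0.214 for Col2a1, while the means stayed below -0.56.

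Col4a1 had log2 ratios of -0.56, -0.77 and -0.57 at P8, with a mean of -0.63 (SE 0.11, adjusted p = 0.0221), nearer to 0 than any P12 value. Col4a2 had -0.45, -0.58 and -0.43 (adjusted p = 0.0376) and stayed under 1.5-fold, and leaving out any 1 array took its adjusted p to between 0.0822 and 0.233. With it, 4 probes were lower without the fold cutoff (0.432% of all probes were). Nid1 had -0.18, -0.14 and -0.46 (adjusted p = 0.28), and Lamc1 had -0.01, -0.12 and -0.47 (adjusted p = 0.511). So both collagen IV chains stood below 0 on every array after 1 day, whereas 2 of 3 arrays of Lamc1 lay near 0. Lama4 had values on both sides of 0, from -0.09 to 0.12.

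Col2a1 had -0.51, -0.69 and -0.72 on probe mMC020191 and -0.65, -0.58 and -0.70 on probe mMR030515 at P8. Both means were -0.64, with adjusted p of 0.0376 and 0.0468. Bgn had -0.44, -0.46 and -0.56 (adjusted p = 0.076). Sparc split by array, with -0.93 and -0.90 on replicates 1 and 2 and 0.09 on replicate 3 (adjusted p = 0.189), and without replicate 3 it was below the threshold (mean -0.92, adjusted p = 0.00405).

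The difference between P12 and P8 was tested in the same model, a contrast added after seeing the data, and 0 of 35 probes passed in either direction, beside 0.0369% of all probes. By limma 5 were lower at P12 than at P8 at an unadjusted p under 0.05 (14.29%, beside 7.31% of all probes). Higher at that p were 2 (5.71%, beside 7.16%). Col4a1 differed by -0.64 (adjusted p = 0.168) and Col4a2 by -0.395 (adjusted p = 0.241). Their unadjusted 95% intervals were -0.99 to -0.30 and -0.684 to -0.11. Over 8 vessel genes the median difference was -0.33, with 6 genes below 0 and 2 above. Since none passed, a further fall of the vessel genes between these ages was not shown by the test.

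At P13, when OIR pups had breathed room air again for 1 day, no vessel basement membrane gene passed, and their ratios lay close to 0; none of 8 had an unadjusted p under 0.05 by limma. Of 43 probes, 2 rose and 0 fell (4.65%), beside 0.734% called of all probes, and both measure Col2a1. By limma 5 probes were below 0 at an unadjusted p under 0.05 (11.63%, beside 6.28% of all probes). Above 0 at that p were 2 (4.65%, beside 5.92%). Col4a1 had 0.45, 0.14 and 0.09, with a mean of 0.22 and a 95% interval of -0.02 to 0.47. Col4a2 had 0.29, 0.08 and -0.20 (interval -0.15 to 0.26), and Nid1 had 0.16, 0.09 and -0.09 (interval -0.13 to 0.24). For Lamc1 and Lama4 the intervals were -0.25 to 0.20 and -0.18 to 0.20. The differences of Lamc1 and Lama4 between P13 and P12, 0.40 and 0.39, did not pass the test (adjusted p = 0.16 and 0.114).

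Col2a1 rose at P13. Probe mMC020191 had log2 ratios of 0.78, 1.00 and 0.74, with a mean of 0.84 (SE 0.12, adjusted p = 0.00365), and probe mMR030515 had 0.60, 0.93 and 0.58, with a mean of 0.70 (SE 0.13, adjusted p = 0.0165). The 6 values were all above 0.5, and all 6 at P8 were below -0.5. Without replicate 2, the highest array for both probes, neither call was kept (adjusted p = 0.082 and 0.238), and without replicate 1 that of mMR030515 was lost (adjusted p = 0.0736).

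Lama2, a laminin alpha chain of muscle and glial basement membranes, was measured at P13 at -0.56, -0.37 and -0.75 (adjusted p = 0.0704). Lamc3, a laminin gamma chain found in the retina, had -0.21, -0.91 and -0.27 (adjusted p = 0.287). Neither passed the test. With Col4a5, whose probes were at 0.04 and -0.15, these were the 3 genes of other basement membrane chains tested at P13, with a median of -0.46, beside 0.04 over 8 vessel genes and -0.01 over all probes.

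The ratio at P13 minus that at P8 was higher for 3 of 34 probes and lower for 0 (8.82%), beside 1.11% called of all probes. By limma 2 were lower at an unadjusted p under 0.05 (5.88%, beside 6.3% of all probes). Higher at that p were 8 (23.53%, beside 6.17%). The 3 called were Col4a1, with a difference of 0.86 (SE 0.16, adjusted p = 0.0143), and the probes of Col2a1, with 1.48 (adjusted p = 0.000457) and 1.34 (adjusted p = 0.0017). The call of Col4a1 was lost without P8 replicate 2 or without P13 replicate 1 (adjusted p = 0.0646 and 0.0655).

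Between P12 and P13, a contrast chosen after seeing the data, 6 of 43 probes were higher at P13 and 0 lower (13.95%), beside 1.54% called of all probes. By limma 1 was lower at an unadjusted p under 0.05 (2.33%, beside 9.0% of all probes). Higher at that p were 11 (25.58%, beside 9.46%). Col4a1 differed by 1.5 (SE 0.16, adjusted p = 0.000422), a change of 2.83-fold in its ratio within 1 day, and Col4a2 by 0.94 (SE 0.13, adjusted p = 0.00261). These calls held without any 1 array, with the lowest difference at 1.39 for Col4a1 and 0.82 for Col4a2. Nid1 differed by 0.61 (adjusted p = 0.0212), Bgn by 0.68 (adjusted p = 0.0377) and Col2a1 by 1.11 and 0.83 (adjusted p = 0.00586 and 0.0343). Of 6 settings that each left out 1 array, 3 ended the call of Nid1 (adjusted p up to 0.0939), 5 that of Bgn (up to 0.117) and 4 that of Col2a1 probe mMR030515 (up to 0.14).

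**Figure D2:**
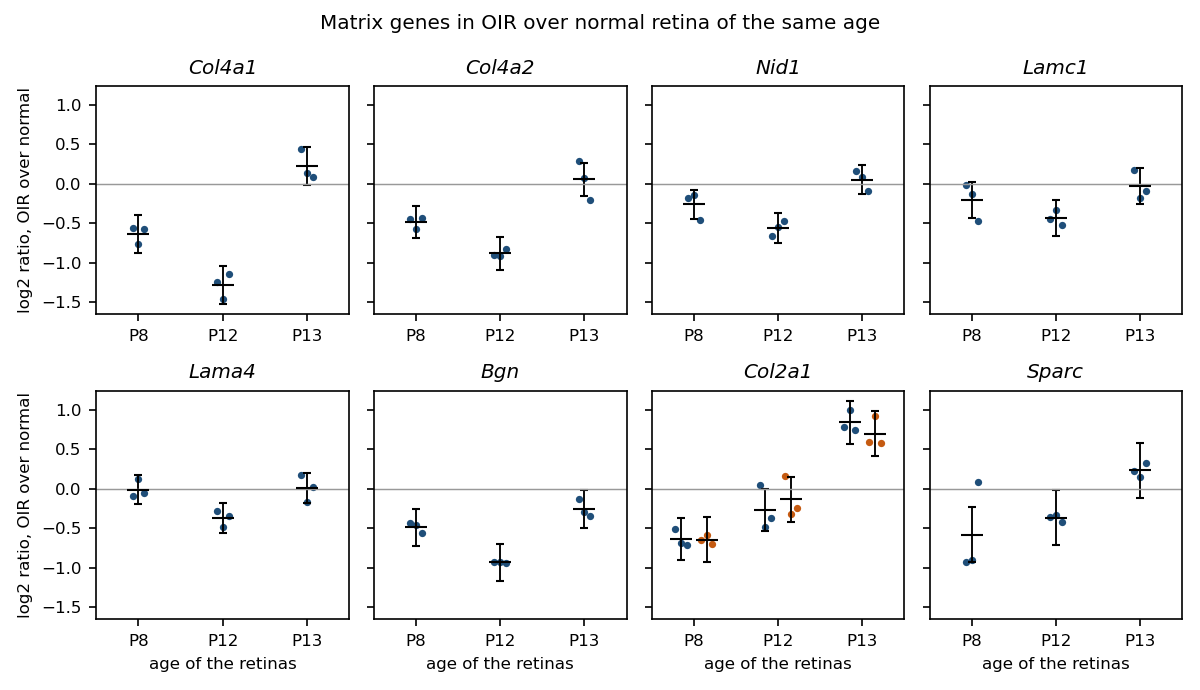
Log2 ratio of OIR over normal retina (y axis) at P8, P12 and P13 (x axis) for 8 matrix genes; points are single arrays, bars are the mean and its 95% interval from limma, and for Col2a1 blue is probe mMC020191 and orange is probe mMR030515. Col4a1 has its lowest values at P12, all under -1.1, and all 3 P13 values above 0.

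As a group, the 9 vessel basement membrane genes tested at P12 had a median of -0.43 over genes, against -0.15 over the other 31 genes and 0.00 over all probes. Their median on single P12 arrays was -0.37, -0.49 and -0.47, against -0.18, -0.14 and -0.20 for the other matrix genes, so these did not overlap. At P8 the vessel genes had array medians of -0.18, -0.15 and -0.43, against 0.04, -0.05 and -0.17 for the others, which overlap between arrays although the vessel genes were the lower group on each. At P13 the vessel genes stood at 0.17, 0.08 and -0.04, against 0.01, -0.11 and -0.12.

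Endothelial marker genes moved along with the vessel basement membrane genes in oxygen. At P12, 10 of 13 markers tested fell, with array medians of -0.72, -0.71 and -0.62, and at P8 2 of 12 fell, with -0.44, -0.36 and -0.49. Of all probes, 1.27% were called at P12, 0.403% at P8 and 0.734% at P13. At P13, 2 of 12 markers had fallen and their array medians were -0.16, -0.26 and -0.34, below those of the vessel basement membrane genes on every array by 0.30 to 0.34. The gap had the same sign on every array at the earlier ages too, at 0.06 to 0.26 at P8 and 0.15 to 0.35 at P12. Pericyte and smooth muscle markers had a median of -0.39 over 7 genes at P12, where 1 fell (Abcc9, at -0.94 on 2 arrays), and of -0.03 at P13, where Acta2, smooth muscle actin, rose by 1.5 (adjusted p = 0.00892) and Abcc9 fell by 0.99 (adjusted p = 0.0447, 2 arrays). Of other marker groups, 2 of 9 rod genes fell at P12 (Gnat1 at -0.73 and Pde6a at -0.98), with a median of 0.06 over genes. In the lens group 1 of 10 rose at P12. At P13, 1 of 10 Mueller glia markers rose and 1 fell, and 1 of 5 astrocyte and 1 of 7 microglia markers rose. In whole retina, fewer vessel cells and less RNA per cell cannot be told apart, and the part of these markers in the matrix ratios was not tested.

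**Figure D3:**
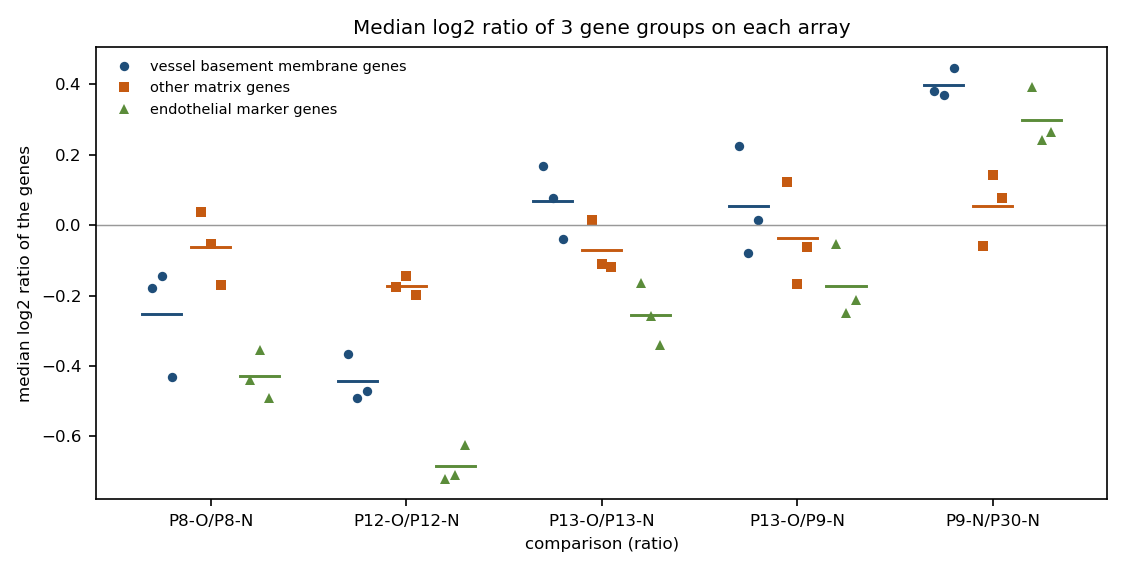
Median log2 ratio (y axis) over the vessel basement membrane genes (circles), the other matrix genes (squares) and endothelial marker genes (triangles) on each array of the 5 comparisons (x axis); lines are the mean of the 3 arrays. At P12 the vessel basement membrane genes, from -0.49 to -0.37, lie below the other matrix genes and above the endothelial markers, and for P9 over P30 they lie between 0.37 and 0.45.

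In normal development, P9 over P30, the vessel genes were on the high side, that is, higher at P9 than at P30. Of 36 probes, 9 were higher and 3 lower at P9 (33.33%), beside 12.0% called of all probes. The 9 belong to 7 genes: Col4a1, Hspg2, Col2a1, Bgn, Col17a1, Col8a1 and Col9a1. The 3 that were lower at P9 belong to Col20a1 and Col7a1. Without the fold cutoff 13 were higher and 5 lower, beside 33.8% of all probes in either direction. Vessel basement membrane genes had a median of 0.42 over 7 genes, against 0.04 over 23 other matrix genes, and their array medians of 0.38, 0.37 and 0.45 lay above those of the other genes, at -0.06, 0.14 and 0.08.

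Col4a1 had log2 ratios of 0.88, 0.47 and 0.63 in P9 over P30 retina (mean 0.66, SE 0.11, adjusted p = 0.000438), and without replicate 1 the mean of 0.55 was under the fold cutoff. Nid1 had 0.38, 0.44 and 0.52 (adjusted p = 0.00123), Col4a2 had 0.54, 0.39 and 0.34 (adjusted p = 0.00332) and Lamc1 had 0.11, 0.37 and 0.38 (adjusted p = 0.0482), all above 0 and under 1.5-fold. Hspg2 was higher at P9 on probe mMR027191, with 0.76, 0.82 and 0.88 (adjusted p = 1.92e-05), whereas its probe mMR028419 had 0.35 and -0.11 (adjusted p = 0.687). The perlecan probes thus gave different answers, as they had at P12. Bgn had 0.89, 0.71 and 0.78 (mean 0.79, adjusted p = 7.48e-05).

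Collagens outside vessels held the widest ratios between P9 and P30. Col20a1, which belongs to the collagens that sit on the surface of fibrils, had -1.87, -1.86 and -1.86, so that P9 retina held 0.275 of the P30 level (adjusted p = 2.18e-07). Col7a1, the anchoring fibril collagen, was lower at P9 than at P30 on both probes, with means of -1.04 and -1.02 (adjusted p = 0.000139 and 7.32e-06). These genes stood at similar values on all 3 arrays.

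Higher at P9 were Col2a1, with 1.53, 1.55 and 1.62 on probe mMC020191 and 1.28, 0.91 and 0.78 on probe mMR030515, and Col17a1, a membrane-spanning collagen of epithelial attachments, with 1.20, 1.65 and 1.43 (adjusted p = 1.24e-07). Col9a1, a fibril-associated collagen of the vitreous, had means of 0.83 and 0.62 on its probes (adjusted p = 0.00255 and 0.00942), and the second was under the cutoff without replicate 2 or 3. Col8a1, a short-chain collagen of the cornea and vessel walls, rested on 2 arrays that differed widely, 0.36 and 2.37. Sparc was above 0 on all 3 arrays (0.52, 0.42 and 0.55, adjusted p = 0.0283) and under 1.5-fold.

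Markers of other tissues differed between these ages as well. Of all probes, 12.0% passed the test and the fold cutoff in this comparison, and 33.8% passed the test without that cutoff. Pigment epithelium markers were higher at P9 for 4 of 5 genes, with array medians of 1.09, 0.98 and 0.94. Lens markers were lower for 4 of 10, with -0.17, -1.16 and -1.05, and rod markers for 8 of 9, with a median of -1.02 over genes. Endothelial markers had array medians of 0.39, 0.24 and 0.27, with 1 of 12 genes past the test and the fold cutoff and 7 higher without that cutoff. Of 6 microglia markers, 3 were higher at P9, with array medians of 0.52, 0.48 and 0.50. The part of these markers in the ratios of the vessel genes and the collagens was not tested.

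**Figure D4:**
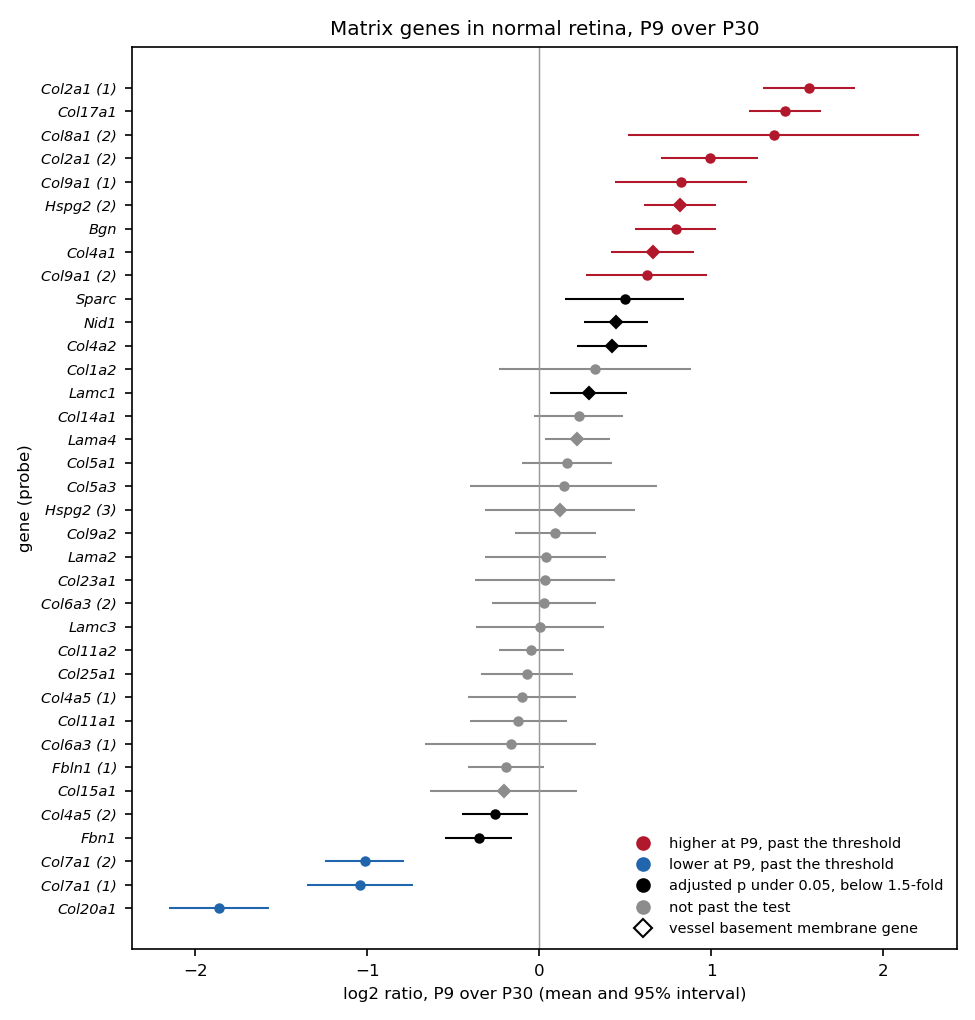
Mean log2 ratio of normal retina at P9 over P30 (x axis, with the 95% interval from limma) for the 36 matrix probes tested (y axis, ordered by mean); colours give the result of the test and diamonds mark vessel basement membrane genes. Col2a1 and Col17a1 stand at the high end and Col20a1, at -1.86, at the low end.

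The remaining comparison, OIR retina of P13 over normal retina of P9, joins a difference of age to one of treatment. Its direction is likely rather than settled, since it was read from the order of channels in the labels. In this direction 7 of 9 rod markers were higher without the fold cutoff and 0 lower, among them Gnat1, the rod transducin, at 2.48, against -3.25 in P9 over P30, and the mean ratios of these comparisons correlated at r = -0.59 over all probes; every sign given here would turn with the opposite direction. Its OIR pools may be those of P13, and its normal pools those of P9 over P30, where P9 stands on top, so its values are given beside the others and not as separate evidence. Of 53 probes, 1 fell and 0 rose (1.89%), beside 2.69% called of all probes. The share of matrix probes called was no higher than that of all probes. By limma 7 were above 0 at an unadjusted p under 0.05 (13.21%, beside 9.83% of all probes). Below 0 at that p were 5 (9.43%, beside 11.13%).

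The probe that fell was Col17a1, with -0.92, -1.01 and -0.81 in P13 OIR over P9 retina (mean -0.91, SE 0.10, adjusted p = 5.56e-05), against 0.08, -0.20 and -0.10 in P8 OIR over P8 normal retina and -0.30, -0.11 and 0.05 in P13 OIR over P13 normal retina. Without the fold cutoff 1 probe was higher and 4 were lower, beside 8.5% of all probes in either direction. Col20a1 was higher, with 0.93, 0.25 and 0.47 (adjusted p = 0.0204). Bgn with 0.02, -0.69 and -0.65 (adjusted p = 0.0237), Lama2 with -0.16, -0.40 and -0.92 (adjusted p = 0.0397) and Hspg2 probe mMR027191 with -0.39, -0.44 and -0.34 (adjusted p = 0.0227) were lower. Bgn and Lama2 passed 1.5-fold without replicate 1 (means -0.67 and -0.66), and Col20a1 did without replicate 2 (mean 0.70). Col4a1 had 0.61, 0.05 and 0.33 (adjusted p = 0.0932). On replicate 1, where Col4a1, Col15a1 and Bgn were at their highest, lens markers had a median of 1.84, against -0.15 and -0.04 on replicates 2 and 3; their part was not tested.

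Genes that build, bind or cut the matrix were read from lists of the same pathway. Of 12 collagen synthesis genes at P13, 2 rose and 0 fell, beside 0.734% called of all probes: P4ha2, a prolyl 4-hydroxylase subunit that collagen needs for a stable helix, at 0.85 (adjusted p = 0.000219), and Loxl2, a lysyl oxidase that crosslinks collagen IV, at 0.76 (adjusted p = 0.0011). At P8, 2 of 11 fell and 0 rose, beside 0.403%: P4ha1 at -0.83 (adjusted p = 0.00406) and P4ha2 at -0.60 (adjusted p = 0.00619). At P12 none of 12 passed with the fold cutoff by limma. Without that cutoff 1 of 12 was lower, beside 3.88% of all probes: Serpinh1, the collagen chaperone, at -0.55 (adjusted p = 0.0106). At an unadjusted p under 0.05, 5 of the 12 were lower and 0 higher, beside 11.99% and 11.49% of all probes. P4ha2 was thus on opposite sides of 0 at P8 and P13, as Col2a1 was. For P13 OIR over P9, 4 of 12 rose, beside 2.69%: P4ha2 (1.13), Loxl2 (0.95), Plod2 (0.84), which hydroxylates collagen lysines, and P4ha1 (0.84). For P9 over P30, Serpinh1 was higher at P9 by 1.46 and P4ha2 lower at P9 by 0.72.

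No matrix receptor or protease gene passed with the fold cutoff in OIR over normal retina of the same age. Without it the integrin chain Itgb1 was lower at P12, at -0.34 (adjusted p = 0.0302). None of 11, 15 and 15 receptor genes and none of 12, 15 and 14 protease and inhibitor genes passed with the fold cutoff by limma at P8, P12 and P13. At an unadjusted p under 0.05 this would be 2 receptor genes lower at P8, 4 lower and 2 higher at P12, and 2 lower and 1 higher at P13, and for the proteases and inhibitors 1 lower at P8, 1 lower and 1 higher at P12, and 3 higher at P13. Of all probes, 5.4% were lower at P8 at that p, 11.99% lower and 11.49% higher at P12, and 6.28% lower and 5.92% higher at P13. For P9 over P30, the integrin chains Itgb1 (0.60) and Itga3 (1.01), the gelatinase Mmp2 (0.86) and the sheddase Adam10 (0.65) were higher at P9. Timp3, a matrix-bound protease inhibitor, was lower at P9 by 0.77 and the syndecan Sdc4 by 0.65. Both Timp3 (1.13) and Sdc4 (0.59) were higher in P13 OIR over P9 retina. Among 22 other matrix genes at P12, 2 fell, beside 1.27% called of all probes: Mgp, an inhibitor of calcification made by vessel walls, at -0.69 (adjusted p = 0.00854), and Vtn, the adhesion protein vitronectin, at -0.82 (adjusted p = 0.00977). Mgp was also low at P8, at -0.74 on 2 arrays (1 of 18 genes, adjusted p = 0.0468), beside 0.403% called of all probes. None of 19 passed with the fold cutoff at P13 by limma (1 lower and 2 higher at an unadjusted p under 0.05). Without the fold cutoff 4 of 22 were lower at P12, beside 3.88% of all probes. These included Eln, at -0.46 (adjusted p = 0.00299), and Mfap2 on probe mMC005025, at -0.45 (adjusted p = 0.00669). Eln was also lower at P13, at -0.32 (adjusted p = 0.0296). Vtn was at -2.81 in P9 over P30 and at 1.51 in P13 OIR over P9 retina. Gnat1 and Pde6a, the 2 of 9 rod markers that fell at P12, had the same signs there. The median over these 9 rod markers at P12 was 0.06. The part of rods in the Vtn ratios was not tested. For P9 over P30, 4 of 19 other matrix genes were higher at P9 (Mfap2, Ncan, Tnc and Fbn2). Lower at P9 were 2 (Vtn and Smoc2), beside 12.0% called of all probes. For P13 OIR over P9, 1 of 26 rose (Vtn) and 2 fell (Mfap2 and Spp1), beside 2.69%.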

How the data were processed

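The authors deposited normalized log2 ratios of 15 2-colour arrays; normalization, background correction, the joining of dye orientations and the rule for blanks are not given in the sources used here. Pools came from different litters. Ratios run channel 2 over channel 1; those of P9 and P30 were turned to give P9 over P30. For 4 comparisons this direction matches the signs printed with the study (38 of 39 genes at P13 and all genes compared elsewhere). With limma 3.58.1 (R 4.3.3), a single linear model gave each comparison its own mean. It took all arrays as independent, although P13 OIR over P9 likely shares pools with other comparisons. Probes with values on at least 2 of 3 arrays were tested against 0 by moderated statistics, two-sided, and p-values were adjusted over all of them (Benjamini-Hochberg). Group medians average the probes of a gene first; 20 of the 59 genes have more than 1 probe. Procedures were tested on simulated data. Named were all vessel genes, other members past the threshold at P8, P12 or P13, the 10 highest and lowest others, and up to 4 genes per pathway list and comparison; further genes were chosen after their values were seen. Members and lists were chosen with earlier results of these data known. The alternatives were a separate fit per comparison, median centring, scaling, array weights, other sets of probes, no fold cutoff, each array left out in turn, and a block for replicate number. Fold changes printed with the study served for this check of direction alone.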

Additional observations from a re-analysis of the deposited data

Results flagged for a closer look

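The ratio of OIR over normal retina differed between ages, by a limma test of the difference itself, for 5 of the matrix genes. P13 minus P8 was 0.86 for Col4a1 and 1.48 and 1.34 for the probes of Col2a1. P13 minus P12, a contrast chosen after seeing the data, was 1.5 for Col4a1, 0.94 for Col4a2, 0.61 for Nid1, 0.68 for Bgn, and 1.11 and 0.83 for the probes of Col2a1. At P13 the ratios of Col4a1 and Col2a1 were above 0 on all 3 arrays, those of Col4a2 and Nid1 lay on both sides of 0, and those of Bgn were below 0 on all 3.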

How the results depend on the processing

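No call or difference changed direction under any alternative for a named gene. Of 30 named results past both the test and the fold cutoff, 18 stayed so throughout. Of 14 that passed the test under the fold cutoff, 13 had an adjusted p over 0.05 under at least 1 alternative, among them Col4a2 at P8, Lama4 at P12, Hspg2 for P13 OIR over P9 and Sparc for P9 over P30. With a separate fit per comparison, 0 probes fell at P8 and 0 rose at P13, and 9 named results were lost, among them Col4a1 at P8 (adjusted p = 0.362) and Col2a1 at P13 (0.163 and 0.175). Without the fold cutoff 6 probes were lower at P12, 4 lower and 1 higher for P13 OIR over P9, and 5 lower for P9 over P30. Array weights gave 1 lower at P13, 2 lower for P13 OIR over P9, and 5 higher and 1 lower for P13 minus P8; scaling gave 1 lower at P13. Leaving out 1 array gave 0 to 1 probes lower at P8, 3 to 5 lower at P12 (5 without replicate 3, with Nid1 and Col24a1), 0 to 2 higher at P13, 0 to 1 higher and 1 to 3 lower for P13 OIR over P9 (3 without replicate 1), 7 to 8 higher for P9 over P30, 2 to 4 higher for P13 minus P8 and 3 to 6 higher for P13 minus P12 (3 without P13 replicate 1 or 2).

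The vessel median minus that of the other matrix genes was -0.14 at P8 (-0.21 to -0.18 without 1 array), -0.28 at P12 (-0.28 to -0.17, the last without replicate 2; -0.38 with values on all 15 arrays) and 0.39 for P9 over P30 (0.35 to 0.45; 0.14 with all basement membrane genes against the rest). At P13 it was 0.10, with 0.046 to 0.23 without 1 array (0.23 without replicate 3), 0.0044 with values on all 15 arrays, 0.018 over probes and -0.0056 with all basement membrane genes, so that its sign at P13 depends on the grouping. For P13 OIR over P9 it was 0.12, with 0.088 to 0.16 without 1 array, 0.13 scaled, 0.065 on all 15 arrays and 0.015 with all basement membrane genes.

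The replicate numbers were not taken to pair arrays across comparisons: over 30 same-numbered pairs, r lay between -0.19 and 0.21 and 5 were above 0.1. Pairs that may share OIR pools, P13 with P13 OIR over P9, had 0.21, -0.03 and 0.19. Pairs that may share normal P9 pools, P13 OIR over P9 with P9 over P30, had 0.06, 0.02 and -0.02. Shared pools in the first of these pairings were thus not excluded. With the number as a block, 2 probes fell at P8, 3 fell at P12, 2 rose at P13, 9 rose and 3 fell for P9 over P30, and 1 fell for P13 OIR over P9; the probe lost at P8 was Col2a1 mMR030515 (adjusted p = 0.0654).

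Each comparison rests on 3 arrays of pools, and P8 replicates hardly correlated. Blank values leave 17 of 59 genes untested, and a blank does not show a low level. Intensities were not used here, so signal over background is unknown.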

Other observations

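Some values rest on single arrays. Dcn, which codes for the small proteoglycan decorin, had 1 probe with values on 3 arrays of different comparisons, -4.14 at P8 (replicate 3), -1.94 at P12 (replicate 3) and -4.52 for P13 OIR over P9 (replicate 2), and could not be tested. Col3a1, the fibrillar collagen of loose connective tissue, had -2.63 on the same P8 array and -1.13 on the same array of P13 OIR over P9, where the other arrays of that comparison had 0.90 and 0.14.

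Across the matrix probes measured at both ages, mean ratios at P8 and P13 ran in opposite directions (r = -0.53, rho = -0.52, 34 probes; r = -0.13 over 12958 probes), whereas those at P8 and P12 ran together (r = 0.49, rho = 0.43, 35 probes; r = 0.19 over 13566 probes). P8 also ran against P9 over P30 (r = -0.49, rho = -0.58, 34 probes, with r = -0.01 over 12855 probes). P12 and P13 showed little relation (r = 0.16, rho = 0.15, 43 probes, with r = 0.11 over 14126 probes). Both tested probes of Col2a1, which changed sign from P8 to P13, are among the points for these ages. Probes of a gene and arrays of a comparison are shared within these points, and the values are a description.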
